A study of Mus musculus with 15 samples.

Results

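The open chromatin around Nfkbia and Tnfaip3, a pair of genes that restrain NF-kB signalling, was followed in bone marrow derived macrophages treated with lipopolysaccharide (LPS). Members were all DNase I hypersensitive regions (hotspots) that overlapped chr12:56550000-56640000, around Nfkbia, or chr10:18690000-18850000, around Tnfaip3, on build mm9. Hotspots that overlapped between lists were merged into elements. This gave 38 elements, 11 in the Nfkbia window of 90 kb and 27 in the Tnfaip3 window of 160 kb, of 324185 merged regions in all. Each element is named by its distance in kb from the approximate gene start, 56.594 Mb on chromosome 12 for Nfkbia and 18.735 Mb on chromosome 10 for Tnfaip3, with positive distances upstream. Both genes lie on the minus strand.

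The study compared macrophages of C57BL/6J mice by genotype and by time with LPS at 10 ng/ml. The 9 groups were wild type (WT), littermate control and Ikzf KO cells, each at 0, 3 and 8 h, with 2 WT, 1 littermate and 2 KO libraries at each time. The labels call the deletion Ikzf KO, and the series title names the transcription factor Ikaros; which cells carry the deletion and the exact genotype of the littermates are not given in the labels. The titles give a DNase amount of 100 U for WT replicate 2 and 80 U for all other libraries, so in WT that amount and the replicate number cannot be told apart. Nothing in the labels says that replicates came from separate mice, so p-values measure only the spread between these libraries. The term controls covers the WT and littermate libraries, 3 at each time.

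NF-kB dimers are held in the cytoplasm by inhibitor proteins until signals such as LPS, acting through Toll-like receptor 4, lead to their release. Nfkbia encodes IkB-alpha, which binds NF-kB, is degraded on stimulation and is made again as a target of NF-kB. Tnfaip3 encodes A20, a ubiquitin-editing enzyme that limits signalling upstream of the kinase that triggers this degradation, and it is also an NF-kB target. DNase I cuts preferentially where nucleosomes are displaced, so hotspots mark promoters, enhancers and other accessible DNA.

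The bases just before each gene's start are shown because a hotspot lay over each gene's start in all 15 lists and because both genes are known NF-kB targets. The sequences are RefSeq promoters on GRCm38.p6, written 5′ to 3′ on the gene's strand (minus), with matches to the NF-kB consensus in capitals. They are chr12:55492648-55492897 for Nfkbia and chr10:19015411-19015660 for the first of 2 Tnfaip3 entries.
Nfkbia: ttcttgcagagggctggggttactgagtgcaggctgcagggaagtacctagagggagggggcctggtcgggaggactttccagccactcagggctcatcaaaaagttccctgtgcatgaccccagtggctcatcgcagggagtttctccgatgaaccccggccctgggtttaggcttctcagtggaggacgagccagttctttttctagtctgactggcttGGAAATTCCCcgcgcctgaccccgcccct
Tnfaip3: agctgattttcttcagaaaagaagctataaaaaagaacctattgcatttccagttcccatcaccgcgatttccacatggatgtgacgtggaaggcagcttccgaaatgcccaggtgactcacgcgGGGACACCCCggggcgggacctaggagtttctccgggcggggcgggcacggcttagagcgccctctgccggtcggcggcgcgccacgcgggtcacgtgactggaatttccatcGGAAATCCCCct
Nfkbia had 1 match, from -29 to -20 relative to its start. Tnfaip3 had 2, from -125 to -116 and from -12 to -3. Among 32851 mouse promoters of the same length, searched on both strands, 3.9% held at least 1 match and 0.831% held 2 or more. The second Tnfaip3 entry, at chr10:19011964-19012213, held none. The letters TGGGAA, a core that Ikaros can bind, were searched on both strands and occurred once in the first Tnfaip3 sequence, from -197 to -192 on the opposite strand and apart from the NF-kB matches, and in 21.6% of all promoters. TATAAA occurred there once too, from -225 to -220, against 12.4% of all promoters. These matches describe letters in a window and do not show binding.

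The lists differ in ways that touch every comparison below. WT lists held 15659 to 51834 hotspots with lowest Z-scores of 7.98 to 10.57, whereas littermate and KO lists held 52400 to 132279 with lowest Z-scores of 3.40 to 4.54. The Z-score is the authors' measure of a hotspot's strength. The Z-score at rank 15659, the length of the shortest list, was 8.48 to 11.42 in the 6 control libraries at 0 and 3 h, 25.77 to 27.32 in the 3 controls at 8 h, and 25.11 to 40.01 in KO. Z-scores at this rank were thus higher in KO and in controls at 8 h than in the other controls, and genotype and list quality cannot be told apart. For this reason values are also given as ranks within a library, among all its hotspots, among the 10426 regions present in all 15 lists, or at equal list length, where each list was cut to its 15659 strongest hotspots. Depth is unknown.

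Of the 38 elements, 3 were in all 15 lists, 4 in 12 to 14 lists and 31 in fewer than 12. Over the whole genome, 3.22% of merged regions were in all 15 lists. The 3 were the element over the Nfkbia start (chr12:56586443-56594964, 8522 bp), the element over the Tnfaip3 start (chr10:18717518-18736196, 18679 bp) and an element 48 kb upstream of Tnfaip3 (chr10:18781601-18783962, 2362 bp). Most of each start element lay downstream of the start. The median length of regions in all 15 lists was 2340 bp. The Tnfaip3 start element was the longest of all 10426, and 0.767% were at least as long as the Nfkbia start element. The merging set the span of the Tnfaip3 start element, through a single hotspot of KO replicate 1 at 3 h that ran over most of it.

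Tnfaip3 had 25 elements upstream of its start element and 1 downstream, and Nfkbia had 4 upstream and 6 downstream. The Tnfaip3 window reaches farther upstream than downstream, and its long start element takes in hotspots downstream, so the choice of windows and the merging set part of these counts. In the Nfkbia window, control lists held from 2 to 6 elements at 0 h, from 2 to 4 at 3 h and from 5 to 10 at 8 h, and KO lists held 9 to 11 at all times. In the Tnfaip3 window, control lists held from 2 to 4 elements at 0 h. At 3 h the WT lists held 3 and 4 and the littermate list 12, and at 8 h the WT lists held 13 and 11 and the littermate list 23. KO lists held 11 Tnfaip3 elements at 0 h in both replicates, 21 at 3 h in both and 22 at 8 h in both. At equal list length, only 8 of the 38 elements were in any list and 2 were in all 15, the elements over the 2 gene starts.

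**Figure D1:**
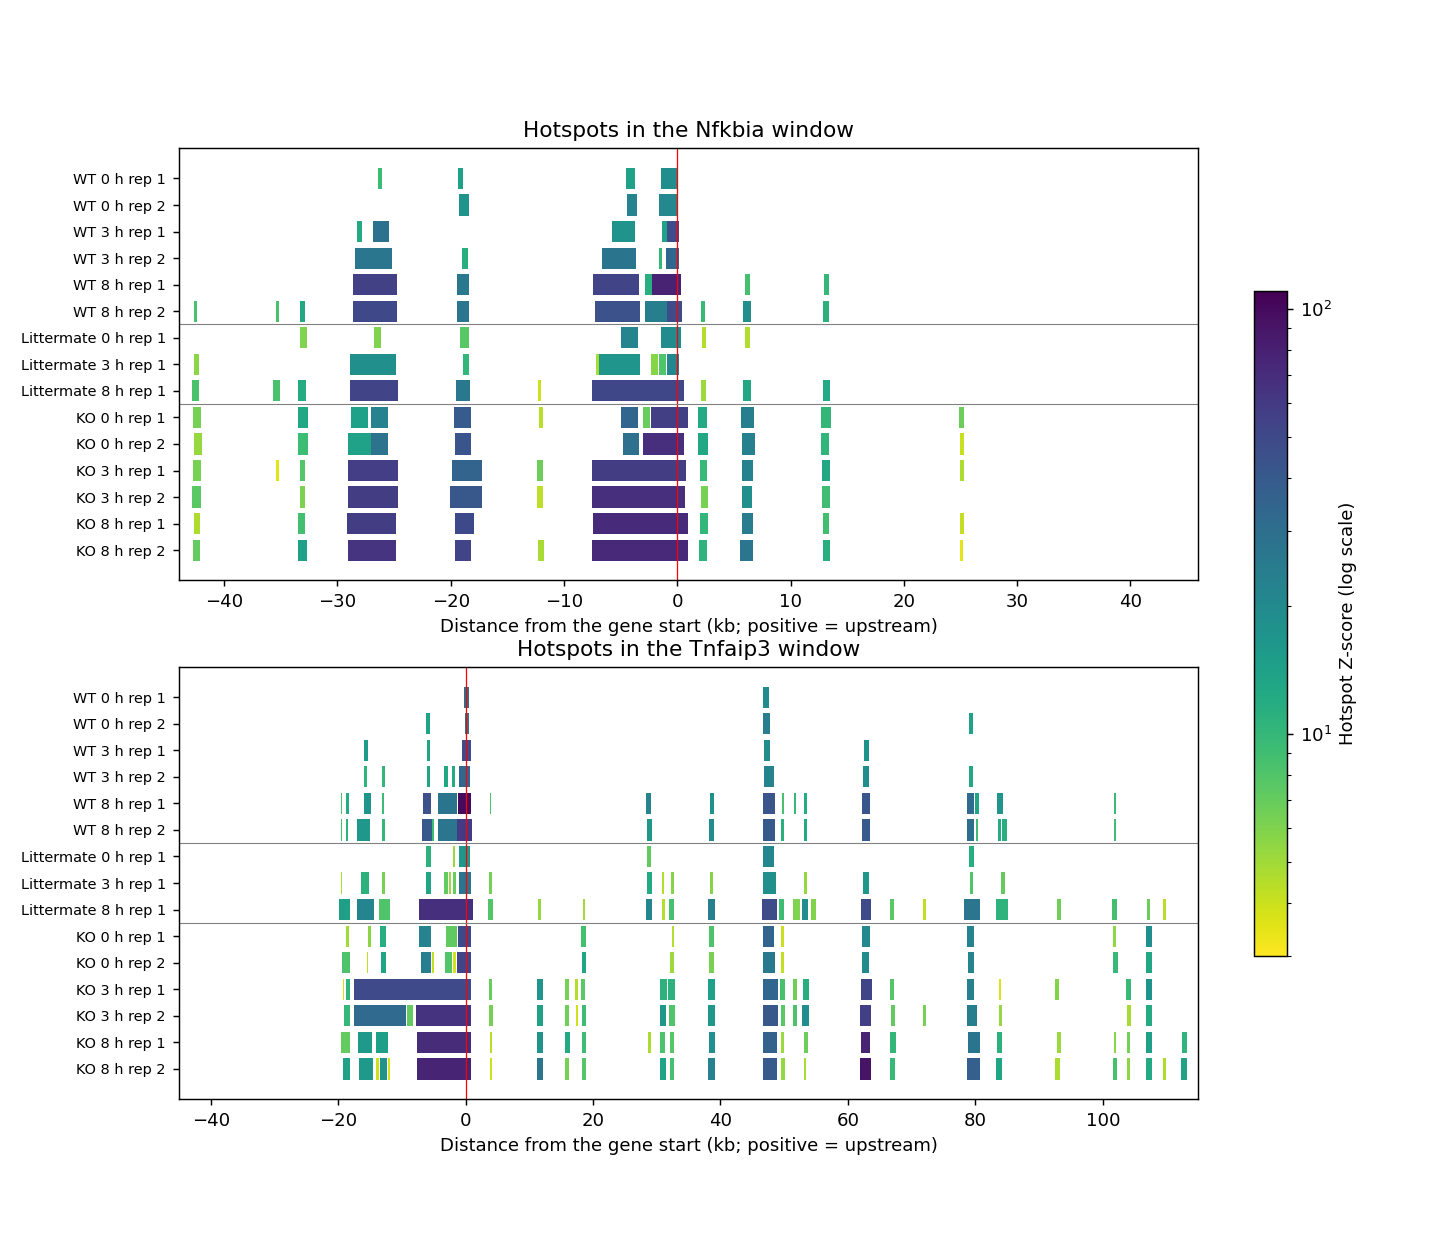
Hotspots of each library (rows) by distance from the approximate gene start in kb (horizontal axis), coloured by Z-score on a log scale, for the Nfkbia window (top) and the Tnfaip3 window (bottom), with the start as a red line. The blocks over and downstream of both starts widen from 0 h to 8 h, and the Tnfaip3 block reaches 17482 bp downstream in KO replicate 1 at 3 h.

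The Nfkbia start element, over the gene for the NF-kB inhibitor IkB-alpha, had Z-scores at 0, 3 and 8 h of 19.1, 47.98 and 77.5 in WT replicate 1. They were 22.1, 33.6 and 48.3 in WT replicate 2 and 21.6, 21.2 and 50.9 in the littermate. At 0 h the values of WT replicate 2 and the littermate came from hotspots at -4430 to -3594 bp and -5000 to -3486 bp. Their hotspots over the start itself had 20.17 and 19.55. KO replicate 1 had 56.4, 58.1 and 71.4 and KO replicate 2 had 68.1, 67.3 and 73.7. The 3 controls at 0 h lay below both KO libraries, and at 8 h WT replicate 1 lay above both. By rank among the 10426 common regions the picture was another. WT replicate 1 went from rank 4663 to 1149 and then 3743, WT replicate 2 from 4599 to 1891 and then 5779, and the littermate from 2869 to 2782 and then 5472. The KO ranks were 4099, 4033 and 4153 in replicate 1 and 2732, 3118 and 4819 in replicate 2. Both WT series thus ranked highest at 3 h, while the littermate and both KO series hardly moved between 0 and 3 h for the element as a whole. The hotspot over the start alone went from rank 3836 of the list at 0 h to 2913 at 3 h in the littermate. In KO that hotspot went from 4325 to 4347 in replicate 1 and from 2786 to 3276 in replicate 2. On the scale of normal scores, on which 1 is 1 SD of all common regions, the 3 h minus 0 h difference was 0.63 ± 0.23 (SE) in controls and -0.05 ± 0.28 in KO. Neither passed limma's test over all common regions (adjusted p = 0.108 and 0.999). The control value passed without the littermate (0.92, limma adjusted p = 0.0345), where 461 of 10520 regions were called higher and 445 lower. It also passed when regions were ranked by highest tag density (0.80, limma adjusted p = 0.0383, where 6.17% of common regions were called, or 4.47% with log2 density). The element's 8 h minus 0 h difference in controls was -0.24 by Z-score rank and 0.26 by density rank, and neither passed the test.

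The accessible stretch over Nfkbia lengthened with LPS. Hotspots covered 2164, 3603 and 7255 bp of the element at 0, 3 and 8 h in WT replicate 1, 2479, 4446 and 7166 bp in WT replicate 2, and 3221, 6086 and 8116 bp in the littermate. KO replicate 1 had 5395, 8315 and 8402 bp and KO replicate 2 had 5038, 8284 and 8452 bp. In all 5 series the covered length was greater at 3 h and at 8 h than at 0 h. In 500 bp bins, both KO lists at 3 h and all 3 controls at 8 h covered every bin from -7000 to 0 bp, whereas no control list at 0 h covered the bins from -7000 to -5500 bp. The share of all bins with such a pattern was not determined. Since covered lengths differed between whole lists, the element's covered length was ranked among the 10426 common regions, with 1 as the longest. The ranks at 0 h were 101, 142 and 201 in controls and 252 and 304 in KO. With 3 h of LPS the ranks were 22, 29 and 26 in controls against 66 and 63 in KO. With 8 h they were 25, 39 and 58 against 66 and 65. No library at 3 or 8 h overlapped the libraries at 0 h. The mean log2 rank differed by -2.33 at 3 h and -1.97 at 8 h from 0 h, and both gave p = 0.0278 in an exact two-sided permutation test that exchanged times only among libraries of like genotype, the smallest p its 72 arrangements allow. All 5 libraries were longer by rank at 3 h than all 5 at 0 h for 1.98% of common regions, and at 8 h than at 0 h for 3.79%. The log2 rank was 1.02 higher, that is relatively shorter, in KO than in controls over all times (exact permutation p = 0.002, 9 such tests in all, not adjusted). This test takes libraries of like genotype and replicate number as independent across times. Its p-value, and those of later permutation tests of KO against controls, may thus be too small.

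The Tnfaip3 start element, over the gene for A20, had Z-scores at 0, 3 and 8 h of 29.7, 48.2 and 100.4 in WT replicate 1, 27.1, 33.6 and 58.8 in WT replicate 2, and 16.3, 27.4 and 67.0 in the littermate. The KO values were 49.8, 48.8 and 70.2 in replicate 1, and replicate 2 had 52.5, 64.8 and 77.3. All 3 control series were higher at each later time, and the littermate at 0 h was the lowest library. Its ranks among common regions were 1913, 1129 and 2224 in WT replicate 1, 2884, 1882 and 4079 in WT replicate 2, and 5277, 1433 and 3193 in the littermate. The KO replicates ranked it at 5179, 5612 and 4303 in replicate 1 and 4717, 3447 and 4374 in replicate 2. At 3 h every control ranked higher than both KO libraries. KO minus controls at 3 h was -0.91 ± 0.28 (SE) on the normal score scale, lower in KO, with an adjusted p of 0.0382 in limma's test. In this comparison 14.6% of common regions were called in either direction and 8.16% as lower. The call was lost without WT replicate 1 (adjusted p = 0.0571), without KO replicate 1 (0.587) and without KO replicate 2 (0.159), and with ranks by highest tag density (difference -0.43, adjusted p = 0.376). The controls' 3 h minus 0 h difference was 0.59 ± 0.25 (adjusted p = 0.166).

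The stretch over the Tnfaip3 start lengthened with LPS too. WT replicate 1 had 871, 2476 and 7593 bp covered at 0, 3 and 8 h, WT replicate 2 had 1304, 4212 and 9700 bp, and the littermate had 2699, 6166 and 12940 bp. KO replicate 1 had 6957, 18274 and 12612 bp, and KO replicate 2 had 6757, 17674 and 12652 bp. In controls the length was greater at each later time, and in both KO series it was greatest at 3 h. In KO replicate 1 at 3 h a single hotspot of 18274 bp ran from 791 bp upstream to 17482 bp downstream of the start. In replicate 2 the hotspot over the start was 8544 bp long and others followed it downstream. 7 bins of 500 bp, from 8.0 to 11.5 kb downstream of the start, were covered in both KO lists at 3 h and in no other of the 15 lists. These bins adjoin each other and lie in long hotspots, so they are not separate observations. The share of all bins with this pattern was not determined. By a wider pattern, 27.8% of merged regions in any list at 3 h were in both KO lists and no control list. All 3 controls at 3 h and at 8 h did cover the bins at -16000 and -15500 bp, which no control covered at 0 h. In KO at 0 h, 1 list already covered the bin at -16000 bp and both covered the bin at -15500 bp.

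By rank of covered length among common regions, the Tnfaip3 start element went from 3275 to 90 to 22 in WT replicate 1, from 1576 to 36 to 10 in WT replicate 2 and from 387 to 24 to 4 in the littermate. KO replicate 1 went from 73 to 1 to 6 and KO replicate 2 from 86 to 1 to 6. It was thus the longest common region in both KO libraries at 3 h. At 8 h all 5 libraries ranked it longer than any did at 0 h. The mean log2 rank differed by -5.45 at 3 h and -5.71 at 8 h from 0 h (exact two-sided permutation p = 0.0278 for each, the smallest possible). At 3 h the groups overlapped, since WT replicate 1 (rank 90) lay behind both KO libraries at 0 h. KO minus controls over all times was -3.36, longer in KO (exact permutation p = 0.003, not adjusted). A single hotspot of KO replicate 1 at 3 h joined stretches that no other list joined, and so set the bounds of this element. The KO ranks at 3 h and the test of KO against controls thus follow in part from the merging. The median covered length of common regions was 735 to 871 bp in WT and 1012 to 1078 bp in littermate libraries at 0 and 3 h, 1351 to 1842 bp in controls at 8 h and 1916 to 2070 bp in KO. Its part in these lengths was not tested beyond the ranking.

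**Figure D2:**
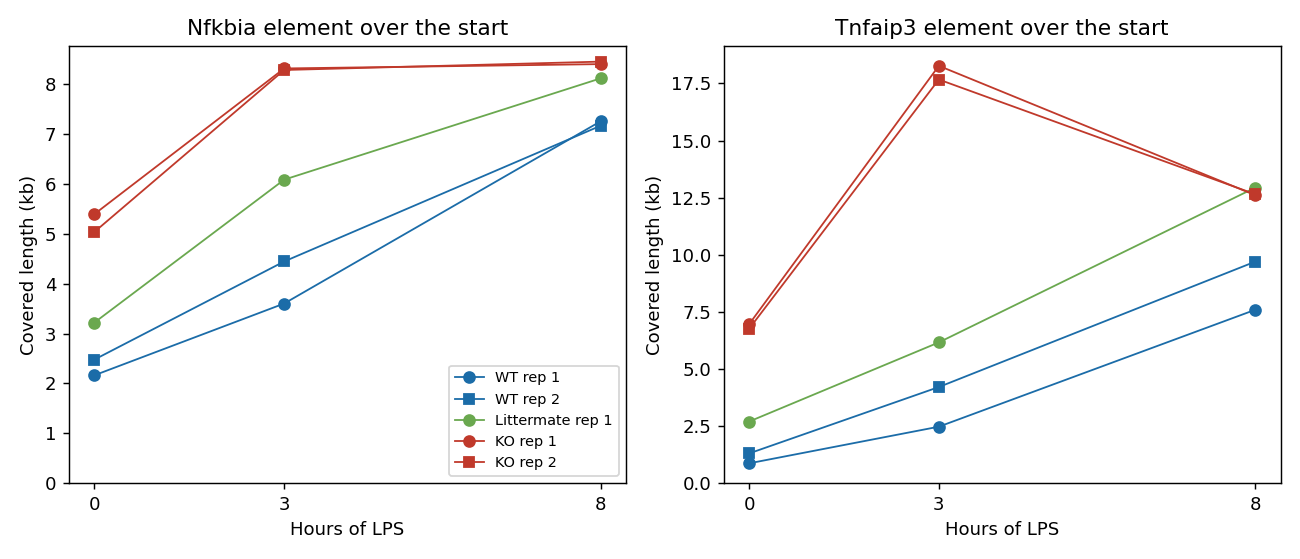
Length in kb covered by hotspots (vertical axis) within the elements over the Nfkbia start (left) and the Tnfaip3 start (right) by hours of LPS, 1 line per genotype and replicate. All series are longer at 3 and 8 h than at 0 h, and both KO series at Tnfaip3 peak at 3 h, at 18274 and 17674 bp.

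The element 63 kb upstream of Tnfaip3 (chr10:18796853-18798745) was strong with LPS and weak or missing without it. It was missing from all 3 control lists at 0 h. Its Z-scores at 3 and 8 h were 17.8 and 41.7 in WT replicate 1, 19.0 and 39.4 in WT replicate 2, and 16.0 and 49.2 in the littermate. KO replicate 1 had 20.1, 52.4 and 76.7 at 0, 3 and 8 h, and KO replicate 2 had 19.7, 56.2 and 92.6. Within each genotype the values at 0, 3 and 8 h did not overlap, and at 3 and at 8 h both KO libraries lay above all controls. It was the only one of the 19 elements in a control list at 0 or 3 h that was in all at 3 h and none at 0 h, a pattern shared by 0.345% of regions present in a control list at either time. It was also in all 10 LPS lists and no control list at 0 h, against 0.094% of regions. The longer KO lists held it at 0 h, at ranks 21691 and 21339, beyond the length of the shortest list.

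At equal list length the +63 kb element of Tnfaip3 was in all 5 lists at 3 h, all 5 at 8 h and none of the 5 at 0 h. Of regions in any of these lists, 0.902% had this pattern at 3 h and 1.75% at 8 h. Its ranks at 3 and 8 h were 7795 and 9297 in WT replicate 1, 6855 and 8557 in WT replicate 2, 5291 and 6393 in the littermate, 5530 and 3887 in KO replicate 1, and 5030 and 3182 in KO replicate 2. From 3 to 8 h it moved down in the 3 control series and up in both KO series. No test of these ranks between times is given, since the element is described for this pattern of presence and all 5 libraries at 0 h lay outside the lists. The KO fits that follow use libraries that set this pattern, so for this element they restate it and add no separate support. In a fit over the regions that all KO lists at 0 and 8 h held, the +63 kb element rose from 0 to 8 h by 1.16 ± 0.12 (SE) normal score units (limma adjusted p = 0.0328). There 1 of the 20 elements tested was called, and 7.24% of all regions were. In the fit over KO lists at 0 and 3 h its difference was 0.96 ± 0.13 (limma adjusted p = 0.0502), and the +50 kb element was the 1 called of 18 tested (1.23 ± 0.14, adjusted p = 0.0473), where 2.09% of all regions were called. The +50 kb element was weak, with Z-scores of 4.08 and 4.19 in KO at 0 h, where the lists end at 3.64 and 3.66. It had 8.60 and 7.62 at 3 h and 5.19 and 5.38 at 8 h, and no list of equal length held it.

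The -27 kb element of Nfkbia (chr12:56564892-56569359), downstream of the gene, was also strong in all libraries with LPS. WT replicate 1 had Z-scores of 9.40, 28.5 and 55.0 at 0, 3 and 8 h, WT replicate 2 lacked it at 0 h and had 26.6 and 50.2, and the littermate had 6.06, 18.4 and 53.2. KO replicate 1 had 22.7, 57.2 and 57.8, and KO replicate 2 had 27.7, 57.7 and 64.1. Controls were higher at each later time, while KO libraries at 3 h were already close to their level at 8 h. Its ranks within the lists were 14257 in WT replicate 1, 30451 in the littermate, and 18634 and 13866 in KO at 0 h. At 3 h they were 3809, 3495 and 4028 in controls and 4563 and 4771 in KO. At 8 h they were 6492, 5723 and 5472 in controls and 7172 and 7248 in KO. All 10 LPS libraries ranked it above all libraries at 0 h, and every library at 3 h ranked it above every library at 8 h. The share of regions with the latter pattern was not determined. In every series the Z-score at rank 15659 was higher at 8 h than at 3 h, and its part in these ranks was not tested. With lists cut to equal length, and libraries lacking the element placed just below the end, the mean log2 rank differed by -1.87 at 3 h and -1.23 at 8 h from 0 h (exact permutation p = 0.0278 for each, the smallest possible, among 21 such tests and not adjusted). At 0 h the element was inside the cut lists only in WT replicate 1 and KO replicate 2. It is described here for its strength with LPS, so this test restates that pattern and adds no separate support. Of regions in at least 12 lists, 3.16% were stronger in all 5 libraries at 3 h than in all 5 at 0 h, and 4.68% at 8 h. Hotspots covered 0 to 646 bp of this element in controls at 0 h, 1835 to 4068 bp at 3 h and 3890 to 4247 bp at 8 h. KO lists covered 3066 and 3496 bp at 0 h and 4261 to 4436 bp with LPS.

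In fits over the KO lists alone, the -27 kb element of Nfkbia differed from 0 h by 0.79 ± 0.15 (SE) at 3 h (limma adjusted p = 0.0668) and by 0.54 ± 0.14 at 8 h (adjusted p = 0.0874), and neither passed the test. Without WT replicate 2 the element entered the main fit as 1 of 4. It was called higher than at 0 h in controls at 8 h, where 402 of 11175 regions were called higher and 635 lower. In KO it was called higher at 3 h, where 45 regions were called higher and 22 lower, but not at 8 h. These calls again restate the pattern for which it is described. The fit with the littermate as the only control gave differences of 1.97 at 3 h and 1.74 at 8 h in the littermate and of 1.10 and 0.79 in KO. These are given with no test, because the littermate has 1 library per time and its spread is borrowed from the KO libraries. That fit called large shares of all regions: 35.6% and 32.3% between times in the littermate, 22.8% and 27.7% in KO, 45.6%, 44% and 23.3% between genotypes at 0, 3 and 8 h, and 17.4% for the difference of the 8 h changes.

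The -19 kb element of Nfkbia (chr12:56573955-56576732) had higher Z-scores in KO at every time. Controls had Z-scores of 7.60 to 17.2 at 0 h and 26.0 to 26.9 at 8 h. At 3 h WT replicate 1 lacked it, WT replicate 2 had 11.4 and the littermate had 10.3. In KO replicates 1 and 2 it had 39.9 and 42.3 at 0 h, then 34.8 and 41.6 at 3 h, then 49.5 and 53.4 at 8 h, all above every control. Its ranks were 8154, 8033 and 21374 in controls at 0 h and 8376 and 7399 in KO, so that by rank the WT and KO libraries overlapped at 0 h. At 8 h they were 15945, 14816 and 16727 in controls and 9486 and 10144 in KO, which did not overlap. The log2 rank at equal list length was 0.49 lower, that is stronger, in KO over all times (difference -0.49, exact permutation p = 0.01, not adjusted). In fits over the lists of each comparison alone, KO minus controls was 0.51 ± 0.42 (SE) at 0 h (limma adjusted p = 0.465) and 0.42 ± 0.13 at 8 h (adjusted p = 0.0716), and neither passed the test.

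**Figure D3:**
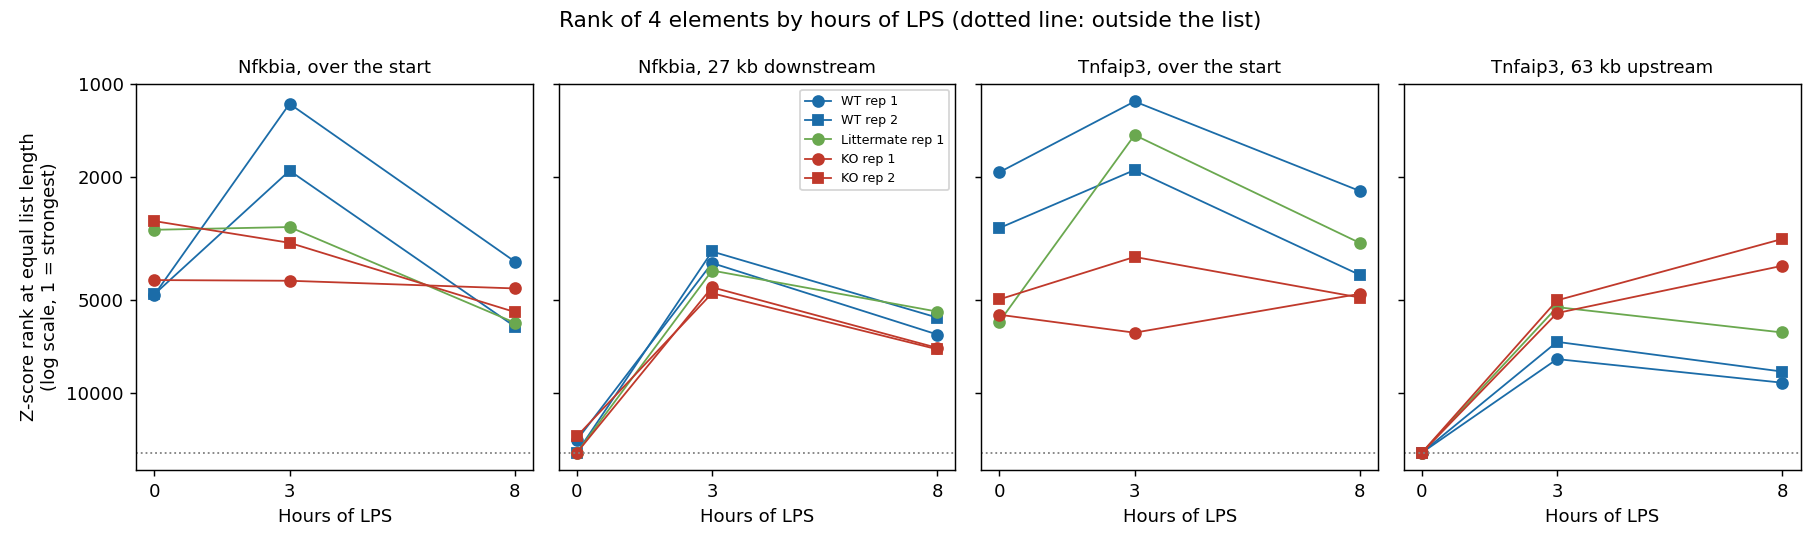
Z-score rank at equal list length (vertical log axis, 1 is the strongest hotspot, dotted line for elements outside the list) by hours of LPS for 4 elements, 1 line per genotype and replicate. The Nfkbia -27 kb and Tnfaip3 +63 kb elements lie at or near the end of the list in all 5 libraries at 0 h and at rank 9297 or better in all 10 LPS libraries.

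The +48 kb element of Tnfaip3 was present in every list. By Z-score it ranked lower with LPS in controls and lower in KO, and by tag density its order between genotypes at 3 h was the opposite. Its Z-scores at 0, 3 and 8 h were 19.5, 18.8 and 42.3 in WT replicate 1, 24.4, 21.9 and 41.0 in WT replicate 2, and 21.1, 18.4 and 48.2 in the littermate. The KO series had 34.6, 33.8 and 36.1 in replicate 1, and replicate 2 had 25.6, 41.3 and 39.7. Its ranks among common regions were 4520, 6616 and 8059 in WT replicate 1, 3712, 5043 and 7221 in WT replicate 2, 3032, 3759 and 5998 in the littermate, 8146, 8451 and 9216 in KO replicate 1 and 9542, 7322 and 9295 in KO replicate 2. In all 3 control series the rank was further down the list at each step, and at each time both KO libraries ranked below every control by Z-score.

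By limma's test the +48 kb element was lower at 8 h than at 0 h in controls by 0.84 normal score units (difference -0.84 ± 0.24 SE, adjusted p = 0.0321). It was the only one of the 3 elements tested that was called there, where 12.6% of common regions were called. KO minus controls was -1.44 ± 0.27 at 0 h (adjusted p = 0.00209), where 22.2% of common regions were called. It was -0.72 ± 0.27 at 3 h (adjusted p = 0.0851) and -0.73 ± 0.27 at 8 h (adjusted p = 0.135). With ranks by highest tag density these differences were -1.44 at 0 h (adjusted p = 0.0069), 0.61 at 3 h (adjusted p = 0.253) and -0.37 at 8 h (adjusted p = 0.54), so that the sign at 3 h turned. The Tnfaip3 start element was also called lower in KO at 0 h by density (-1.02, adjusted p = 0.0253), and 16.7% of common regions were called there, or 24.4% with log2 density. In fits over the lists of each comparison alone, the KO difference at 0 h was -1.29 (adjusted p = 0.0372, 1 of 4 elements called, 6.73% of regions). No element was called there at 3 h between KO and controls, where 5.19% of regions were, or between 8 and 0 h in controls, where 8.94% were. The call at 0 h was lost without KO replicate 2 (-1.14, adjusted p = 0.16). The call in controls was lost without either WT replicate or either KO replicate (adjusted p = 0.0728 to 0.14) and with ranks by highest tag density (-0.17, adjusted p = 0.821).

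At equal list length the log2 rank of the +48 kb element was 1.22 higher, that is weaker, in KO over all times (exact permutation p = 0.001, the smallest its 1000 arrangements allow, not adjusted). The Tnfaip3 start element differed by 1.02 in the same direction (exact permutation p = 0.007). Both tests took libraries of like genotype and number as independent across times, so these p-values may be too small. The +80 kb element (chr10:18813214-18815815) was in 13 lists. WT replicate 1 held it at 8 h alone, at a Z-score of 32.1. It had 13.8, 12.7 and 30.0 at 0, 3 and 8 h in WT replicate 2 and 11.5, 8.04 and 27.1 in the littermate, and 21.6 to 37.7 in KO. No KO list of equal length held it, and its log2 rank differed by 0.20 between KO and controls (exact permutation p = 0.088).

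In KO none of the 3 common elements passed the test between times by Z-score rank. There 0.575% of common regions were called at 3 h and 0.786% at 8 h. By tag density the +48 kb element was higher in KO at 3 h than at 0 h, by 1.61 ± 0.35 (SE) with density ranks (limma adjusted p = 0.0402, 0.729% of regions called) and by 1.23 ± 0.27 on the log2 scale (adjusted p = 0.0154, 2.3% called), against 0.37 by Z-score rank. Its 8 h minus 0 h difference in KO was -0.14 by Z-score rank and 0.89 by density rank (adjusted p = 0.318). At 8 h none of the 3 was called between KO and controls, where 5.07% of regions were. In controls between 0 and 3 h none was called either, where 9.08% were. No element was called for the difference of the 8 h changes between KO and controls, for which 2.46% of regions were called. Unadjusted p-values under 0.05 among these were those of both start elements between 3 and 0 h in controls (0.0153 for Nfkbia and 0.0309 for Tnfaip3) and that of the +48 kb element at 8 h (0.0159).

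The density of distal elements was also set against that of the start element of the same gene in the same library, a ratio that a common scale factor of the library leaves alone. For the +63 kb element of Tnfaip3 the ratio was 0.414 and 0.527 at 3 and 8 h in WT replicate 1, 0.696 and 0.717 in WT replicate 2, and 0.862 and 0.768 in the littermate. In KO replicate 1 it was 0.385, 1.81 and 1.42 at 0, 3 and 8 h, and in KO replicate 2 it was 0.311, 1.15 and 1.30. The distal element was thus denser than the start in all 4 KO libraries with LPS and in none of the 6 controls with LPS. The mean log2 ratio was 0.48 ± 0.28 (SD, n = 4) in KO and -0.63 ± 0.39 (SD, n = 6) in controls, a difference of 1.12 (exact permutation p = 0.01, the smallest its 100 arrangements allow, 6 tests, not adjusted). Of the regions in all 10 of these lists, 10.8% were higher relative to the Tnfaip3 start in all 4 KO than in all 6 control libraries.

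For the +48 kb element the ratio to the Tnfaip3 start was 0.547, 0.313 and 0.397 in WT replicate 1 at 0, 3 and 8 h, 0.674, 0.536 and 0.628 in WT replicate 2, and 1.03, 0.695 and 0.626 in the littermate. It was 0.782, 0.958 and 0.606 in KO replicate 1 and 0.444, 0.789 and 0.456 in KO replicate 2. From 0 to 3 h it was lower in all 3 control series and higher in both KO series. No contrast passed the test, with exact permutation p-values of 0.722 for 3 h against 0 h, 0.194 for 8 h against 0 h and 0.535 for KO against controls. For the -27 kb element of Nfkbia the ratio was 0.344 to 0.414 in the 4 libraries with the element at 0 h and 0.582 to 1.20 in the 10 with LPS. With LPS, the log2 ratio in KO exceeded that in controls by 0.12 (exact permutation p = 0.55).

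**Figure D4:**
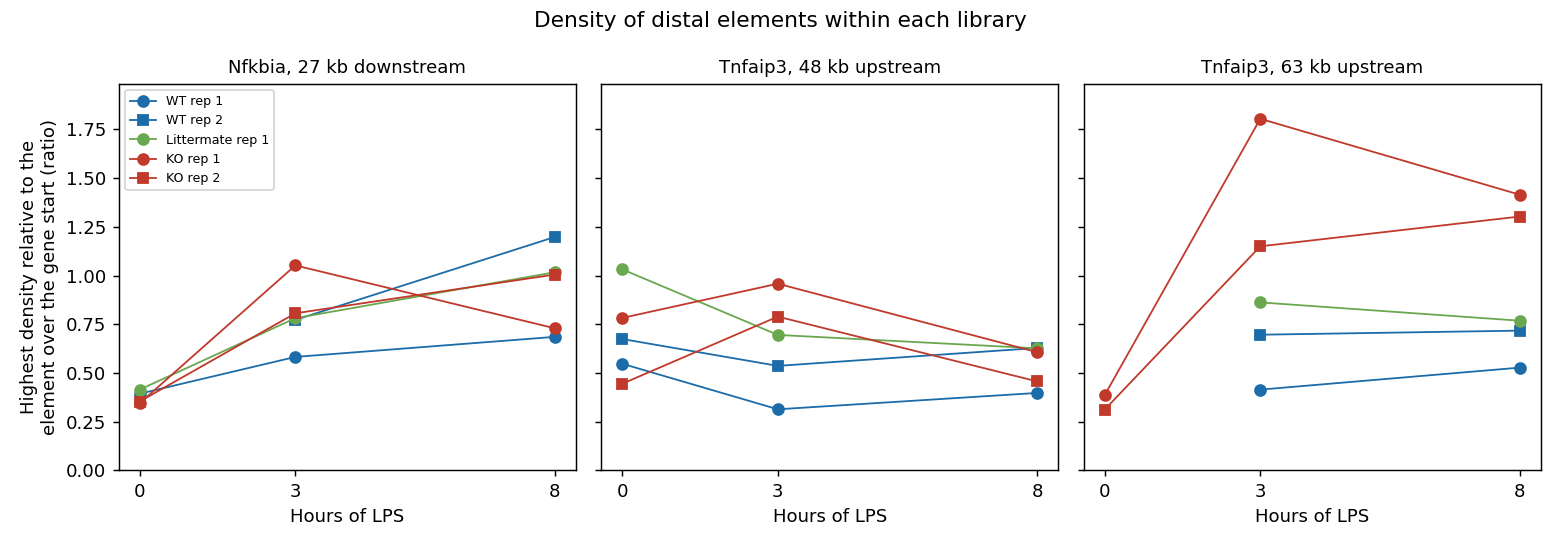
Highest tag density of 3 distal elements divided by that of the element over the start of the same gene in the same library (vertical axis, ratio) by hours of LPS, 1 line per genotype and replicate. The Tnfaip3 +63 kb ratio is 1.15 to 1.81 in the KO libraries with LPS and 0.414 to 0.862 in the controls with LPS.

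The presence of the other elements depends on how far down each list goes. Of 33 elements in a control list at 0 or 8 h, 8 were in all 3 at 8 h and in none at 0 h: the -19, +39, +50, +53, +63, +84 and +102 kb elements of Tnfaip3 and the +13 kb element of Nfkbia. This pattern held for 7.56% of regions in a control list at either time, and for 1 of 7 elements (+63 kb) at equal list length, against 6.07%. In KO, 10 of 34 elements were in both lists at 3 h and in neither at 0 h, all of them at Tnfaip3, against 4.12% of regions. At 8 h there were 10 of 33, all at Tnfaip3, against 5.94%. The number of hotspots in the KO lists was 111553 to 112826 at 0 h, 116803 to 120589 at 3 h and 125251 to 132279 at 8 h. With lists cut to equal length the only such element was +63 kb at both times, against 8.03% of regions at 3 h and 10.1% at 8 h. Of the 10 elements at 3 h, 8 were also among the 10 at 8 h: the +4, +12, +16, +31, +53, +67, +84 and +104 kb elements. At 8 h the highest Z-scores among them were those of the +12 kb element, 17.2 and 27.1 in KO, after 16.9 and 13.95 at 3 h. At 3 h the +53 kb element reached 18.9 in KO replicate 2. In controls the +12 kb element was in the littermate list at 8 h alone, at 5.27. No Nfkbia element was gained from 0 h in both KO lists at either time. The +53 and +84 kb elements were in all 5 lists at 8 h and none at 0 h, against 0.452% of regions.

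**Figure D5:**
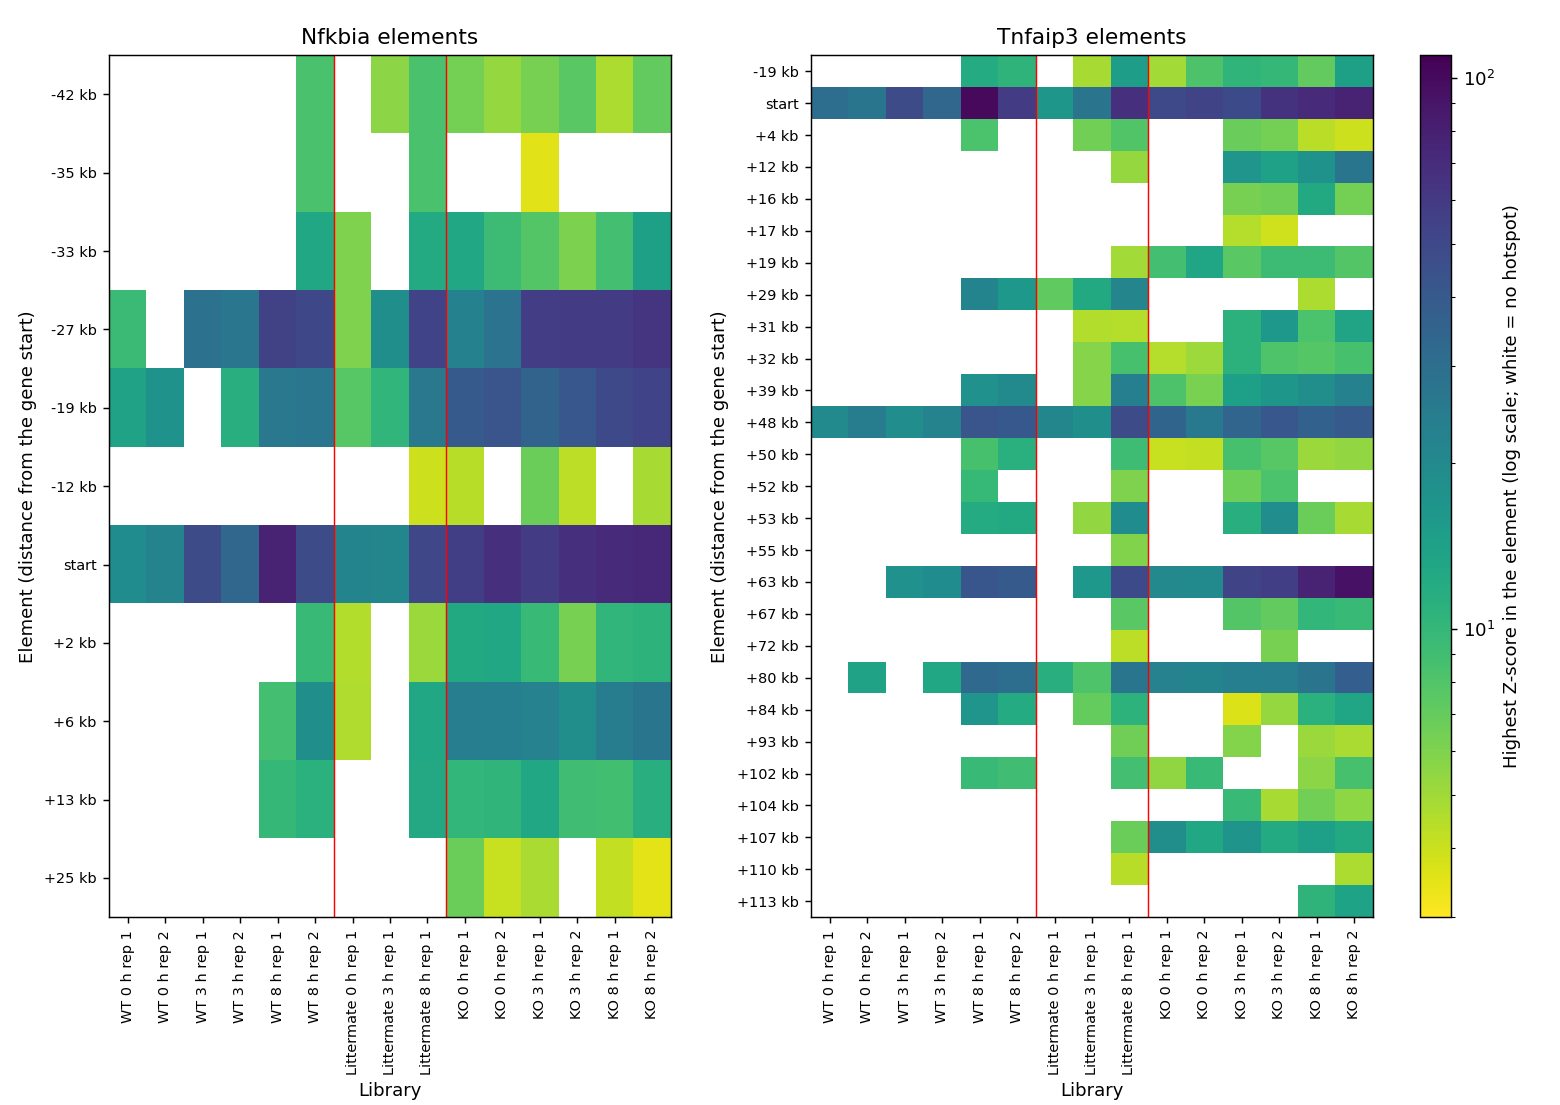
Highest Z-score (log colour scale, white where the list has no hotspot) of each element (rows, named by distance from the gene start) in each library (columns) for Nfkbia (left) and Tnfaip3 (right). Rows filled in every column are the 2 start elements and Tnfaip3 +48 kb, and the +29 kb row of Tnfaip3 is filled in the 3 controls at 8 h but in 1 KO library.

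Presence was also counted by genotype, in lists that are cut at different Z-scores. In both KO lists and no control list were 11 of 22 elements at 0 h, 14 of 34 at 3 h and 4 of 37 at 8 h. These patterns held for 21.3%, 27.8% and 9.9% of regions, so that at 8 h the members' share was close to that of all regions. Among lists of equal length no element had the pattern at any time, against 7.2%, 8.43% and 9.58% of regions at 0, 3 and 8 h. The +107 kb element of Tnfaip3 was in all 6 KO lists at Z-scores of 12.2 to 18.7 and in 1 control list, the littermate at 8 h (6.71). The +6 kb element of Nfkbia had Z-scores of 18.5 to 27.3 in KO and was missing from 5 of 9 control lists, with 4.62 in the littermate at 0 h and 8.79, 18.4 and 12.8 in the controls at 8 h.

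The +29 kb element of Tnfaip3 (chr10:18763313-18764248), named here after its values were seen, went in the other direction. It had Z-scores of 21.6, 16.2 and 21.5 in WT replicate 1, WT replicate 2 and the littermate at 8 h, and 7.18 and 12.4 in the littermate at 0 and 3 h. The KO lists, which reach down to lower Z-scores, held it in 1 of 6, replicate 1 at 8 h, at 4.69. It ranked 19173 to 26855 in the controls at 8 h and 86815 in that KO list. The +53 kb element was present in all 5 lists at 8 h, at 11.95, 12.3 and 19.1 in controls and 6.75 and 4.79 in KO. In a fit over the regions in all lists at 8 h it was lower in KO by 1.41 normal score units (difference -1.41 ± 0.28 SE, limma adjusted p = 0.0203). There 2 of 15 elements were called, the other being +48 kb (-0.54, adjusted p = 0.0419), and 20% of all regions were. The +63 kb element was higher in KO in that fit by 0.52 ± 0.15 (adjusted p = 0.0555).

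The regions whose Z-score ranks followed those of the members most closely over the 15 libraries were sought among 10133 common regions. For the Nfkbia start element the closest was chr5:136559233-136563637, with a Spearman correlation of 0.850. For the Tnfaip3 start element it was chrX:7291216-7292351 (0.939), and for the +48 kb element chrY:1265588-1268699 (0.964). These are descriptions over 15 libraries that share groups, and the top of 10133 comparisons is high by selection. No gene is given for them because no mm9 annotation was used here. On GRCm38.p6 the nearest protein-coding genes are Psma6 downstream and Aldoart2 upstream of Nfkbia, and Perp downstream and Olig3 upstream of Tnfaip3.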

How the data were processed

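DNase-seq hotspot lists of 15 libraries were used. Per the file headers, the authors' lists give for each hotspot its position, the highest and mean tag density (a signal), a Z-score (a score) and a p-value; the deposited p-values were not used. The submitters' processing notes name build mm9 and CASAVA, whose version is not given; no source used here gives the hotspot caller or the scaling of the densities. Depth is unknown, so no counting error can be given. Hotspots overlapping by at least 1 bp were merged over lists, and a region's value in a library is that of its strongest hotspot. Z-scores were ranked within each library over the 10426 regions in all 15 lists, turned into normal scores and fitted with limma 3.58.1 (R 4.3.3) with 6 groups (controls and KO at each time), with Benjamini-Hochberg adjustment over all regions and a threshold of 0.05. For single values an exact two-sided permutation test exchanged times among libraries of like genotype (72 arrangements) or genotypes among libraries of like time (1000, or 100 for libraries with LPS), in Python 3.11.15 with numpy 2.4.6, pandas 2.3.3 and scipy 1.17.1. The exchange of genotypes takes libraries of like genotype and replicate number as independent across times. WT libraries of like number deviated together (correlations of 0.289 to 0.418), so p-values of KO against controls may be too small.

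The members and lists were chosen with earlier results of these data known. The elements chosen to be named with full values were those over the gene starts, those in all 15 lists with the largest change in controls, those past a threshold in any comparison and those whose presence separated times or genotypes completely. Some elements of the last kind are given here by name alone or only within counts. The fits over the lists of a comparison alone, the permutation tests of ranks at equal list length and of covered-length ranks, and the density ratios in libraries with LPS alone were chosen after seeing the data. The other alternatives were ranks or log2 values of the highest density, 500 bp bins, equal list length, 50% coverage, each control genotype alone and leaving out each replicate. On simulated data with shifts of 0.5, 1 and 2 SD in 200 of 10426 regions, the fit of 8 h against 0 h in controls recovered 0%, 19.5% and 89%, with 0, 2 and 10 false calls. Without an mm9 annotation, genes of the NF-kB pathway and macrophage markers could not be placed and were not analysed here, nor was the deletion itself.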

Additional observations from a re-analysis of the deposited data

Results flagged for a closer look

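The density of the Tnfaip3 +48 kb element relative to the Tnfaip3 start changed in opposite directions in controls and KO from 0 to 3 h. The log2 ratio changed by -0.80, -0.33 and -0.57 in WT replicate 1, WT replicate 2 and the littermate, and by 0.29 and 0.83 in the KO replicates. The mean changes differed by 1.13. KO libraries are joined across times by their number only. This difference was not tested.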

How the results depend on the processing

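Counts of called elements depended on the alternative. From 0 to 3 h in controls the count was 0, and it was 1 with ranks by highest density, with log2 density, with 500 bp bins and with WT alone. From 0 to 3 h in controls, 925 of 24261 bins were called higher and 840 lower. With WT alone, 461 of 10520 regions were called higher and 445 lower. At equal list length only the 2 start elements could enter the fit, so the +48 kb element could not be called there in any comparison. From 0 to 8 h in controls the count was 1, and 0 with both density measures, at equal list length and over the lists of the comparison alone. In KO it was 0 at both times, and at 3 h 1 with both density measures, the littermate alone and the comparison's lists, and at 8 h 1 with the latter 2. Between KO and controls it was 1 at 0 h (2 with both density measures, 0 at equal length), 1 at 3 h (0 with both density measures and over the comparison's lists) and 0 at 8 h (2 over the comparison's lists). The difference of changes gave 0. Counts for comparisons that rest on the littermate alone are not given, because it has 1 library per time. The median number of elements per library was 20, 5 at equal length and 13 at 50% coverage; no element could enter the fit at 50% coverage. Leaving out 1 replicate gave counts of 0 to 2. It moved the +48 kb ratio between -0.35 and 0.055 (3 h), -0.41 and -0.22 (8 h) and -0.085 and 0.42 (KO). Covered-length differences stayed between -2.43 and -2.17, -2.01 and -1.90, and 0.80 and 1.21 at Nfkbia, and -5.81 and -5.21, -6.24 and -5.32, and -3.99 and -2.75 at Tnfaip3. Equal-length rank differences stayed between -1.95 and -1.80 and -1.31 and -1.16 for -27 kb, and the +63 kb ratio between 0.88 and 1.31. The Nfkbia start at 3 h in controls passed with log2 density (0.67, limma adjusted p = 0.0378, 4.47% of regions called) and bins (0.77, limma adjusted p = 0.0498). The Tnfaip3 start differed by 0.84 with the littermate alone, given with no test because the littermate has 1 library per time. Libraries of like number deviated together in WT (correlations of 0.289 to 0.418, with the DNase amount shared) but not in every KO pair (-0.051 to 0.222). The numbers were thus not used to pair the libraries as a whole, and KO series are joined by number only. With a replicate block the counts were 0, 1, 0, 0 and 0 for the 4 time contrasts and the difference of changes, with +48 kb at -0.84 (limma adjusted p = 0.00681). From 0 to 8 h in controls that fit called 1225 of 10426 regions higher and 1132 lower, against 610 and 706 in the main fit. Signs turned in 28 cases, in none of which either value passed the test. With density ranks and log2 density these were the Nfkbia start at 3 h in KO (0.11 and 0.10, from -0.05) and 8 h in controls (0.26 and 0.23, from -0.24), and +48 kb at 8 h in KO (0.89 and 0.68, from -0.14) and between KO and controls at 3 h (0.61 and 0.48, from -0.72). With the littermate alone they were the difference of changes at both starts (0.25 from -0.04 at Nfkbia, -0.31 from 0.12 at Tnfaip3) and KO at 0 h at both (-0.11 from 0.16, 0.063 from -0.43). The Tnfaip3 start at 8 h in controls gave -0.003 at equal length and -0.21 with WT alone, from 0.03, and the Nfkbia difference of changes 0.013 at equal length. The +48 kb ratio between KO and controls was -0.20 with Z-scores. Leaving out 1 replicate gave ranges across 0 for the Nfkbia start of -0.11 to 0.016 (3 h in KO), -0.30 to 0.22 (difference of changes) and -0.021 to 0.35 (KO at 0 h), for +48 kb of -0.10 to 0.84 (3 h in KO) and -0.42 to 0.14 (8 h in KO), and for the Tnfaip3 start of -0.10 to 0.32 (3 h in KO), -0.21 to 0.20 (8 h in controls) and -0.063 to 0.36 (difference of changes). Unknown depth and unequal list cut-offs limit every statement on absence.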
